A study of Homo sapiens with 2 samples.

Results

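CDH1 and 9 other genes of the epithelial program, CDH3, CLDN4, CLDN7, EPCAM, ESRP1, RAB25, ST14, OVOL1 and OVOL2, were examined for binding of GRHL2 and MLL3. Their regions were those with a summit inside the gene or within 25 kb of either end, in hg19 coordinates known to the nearest kb. This gave 21 of the 12150 MLL3 regions and 138 of the 152864 GRHL2 regions on the assembled chromosomes, over windows that together span 837 kb. The windows of the neighbouring genes CDH3 and CDH1 overlap, and 1 GRHL2 region lay in both. The assay was chromatin immunoprecipitation followed by sequencing (ChIP-seq), in the established human cell line KYSE510, which derives from an esophageal squamous cell carcinoma. Cells were fixed and sonicated, and chromatin was precipitated with an MLL3 antibody for 1 library and a GRHL2 antibody for the other. Each region list was made against input. Cells with either factor silenced, which the design also mentions, were not analysed here. Each antibody had a single library, so no value carries an error between replicates and no test between the factors was possible.

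GRHL2 is a Grainyhead-like transcription factor that binds DNA directly and is known for keeping epithelial genes active, among them those of adherens and tight junctions. MLL3 (gene symbol KMT2C) methylates histones and acts mainly at enhancers. The genes examined fall into 4 roles. CDH1 and CDH3 encode E-cadherin and P-cadherin, the calcium-dependent adhesion proteins of adherens junctions, and EPCAM encodes a cell surface adhesion protein of epithelia. CLDN4 and CLDN7 encode claudins, the sealing proteins of tight junctions. RAB25 encodes a small GTPase of epithelial vesicle recycling and ST14 the membrane serine protease matriptase. ESRP1 encodes a splicing regulator of epithelial isoforms, and OVOL1 and OVOL2 encode zinc finger transcription factors that restrain the mesenchymal program.

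The sequences before the gene start were shown for 3 genes whose start, to the nearest kb, lay in a region of the GRHL2 list. They are RefSeq sequences in GRCh38.p14, from a promoter table that held 3 of the 10 genes. They were matched by gene symbol, and no position was carried over from hg19. Each runs 5′ to 3′ on the gene's strand over the 250 bases before the start. Capitals mark only AACCTGT, which can form the first 7 bases of a match to AACNNGTT. Other sequences of the form AACNNGT, such as AACTGGT in CLDN4, were not searched or marked.
RAB25 (chr1:156060910-156061159, + strand): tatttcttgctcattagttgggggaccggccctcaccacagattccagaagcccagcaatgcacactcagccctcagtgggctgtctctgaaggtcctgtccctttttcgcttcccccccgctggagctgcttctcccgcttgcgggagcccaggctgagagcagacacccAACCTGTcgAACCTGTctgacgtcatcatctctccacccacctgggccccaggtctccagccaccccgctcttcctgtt
CLDN4 (chr7:73830746-73830995, + strand): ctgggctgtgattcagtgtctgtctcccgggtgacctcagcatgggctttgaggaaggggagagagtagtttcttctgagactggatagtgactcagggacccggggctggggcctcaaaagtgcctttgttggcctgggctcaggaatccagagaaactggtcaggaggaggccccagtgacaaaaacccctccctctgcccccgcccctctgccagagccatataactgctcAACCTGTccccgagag
CLDN7 (chr17:7263214-7263463, - strand): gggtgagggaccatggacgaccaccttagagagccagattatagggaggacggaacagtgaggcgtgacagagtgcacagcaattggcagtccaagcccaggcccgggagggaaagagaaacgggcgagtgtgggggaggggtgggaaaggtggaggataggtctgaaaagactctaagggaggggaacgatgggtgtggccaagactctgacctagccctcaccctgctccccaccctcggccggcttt
RAB25 held AACCTGT 2 times, beginning 79 and 70 bases before the start, and CLDN4 held it 1 time, 16 bases before the start. CLDN7 has 2 starts in the table, and neither promoter held it; the sequence of the outer one is shown. The full GRHL palindrome AACCGGTT and the looser AACNNGTT were searched in the table's 300-base windows (250 before to 50 after the start), and none of the 4 promoters of these genes held either. Both motifs read the same on both strands. AACCGGTT occurred in 0.134% and AACNNGTT in 3.52% of the 35116 promoters in the table. AACCTGT, searched on both strands (ACAGGTT on the other) and chosen after the sequences had been seen, occurred in 2.64%. When followed by T, it is also a match to AACNNGTT. A match is a description of the letters and not a binding site.

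GRHL2 was listed in all 10 windows, but with very unequal strength. The list is dense, with 49.4 regions per Mb over the assembled chromosomes, so a listed region in every window is no result by itself. The fold enrichment, which sets the signal at a summit against the background around it as a ratio, is the authors' value for each region. The strongest GRHL2 region had a fold of 114 at OVOL2, 76.1 at CLDN4, 68.7 at CDH1, 61.5 at OVOL1 and 47.2 at ESRP1. RAB25 followed with 24.1, ST14 with 22.0, CDH3 with 9.74, CLDN7 with 6.40 and EPCAM with 2.80. With 1 library no spread is known, so it cannot be said which neighbours in this order differ. The region at OVOL2 ranked 73 in the whole list of 152864, that at CLDN4 ranked 390, that at CDH1 498 and that at OVOL1 650. The best region of EPCAM ranked 54611, within the top 35.7% of the list, and its fold was close to the median of the list, 2.77.

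Most of the 138 GRHL2 regions were weak, and 77 of the 138 had an adjusted significance (q) above 0.05. That is a smaller share than in the whole list, 68.9%. A −log10 q (the authors' significance after adjustment for multiple tests) of 2 or more was reached by 46 of the 138. This is a larger share than the 19.7% of all GRHL2 regions. At least 20 was reached by 16 of the 138, also a larger share than the 3.98% of the list. The 16 lay in 8 windows, and only EPCAM and CLDN7 had none. Regions with a −log10 q of 2 or more numbered 54.96 per Mb of window and 9.73 per Mb over the assembled chromosomes. At 20 or more the densities were 19.1 and 1.97 per Mb. Of fixed tiles of 100 kb along the chromosomes, 15.4% held a GRHL2 region at 20 or more. All GRHL2 regions together numbered 164.9 per Mb of window and 49.4 per Mb over the chromosomes, so weak regions were closer together here too. Windows of other genes were not compared. The median fold of the 138 regions was 2.78, against 2.77 for the list. Their median width was 532.5 bp against 361 bp, and the median fold of those that reached a −log10 q of 2 was 6.38 against 4.54.

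**Figure D1:**
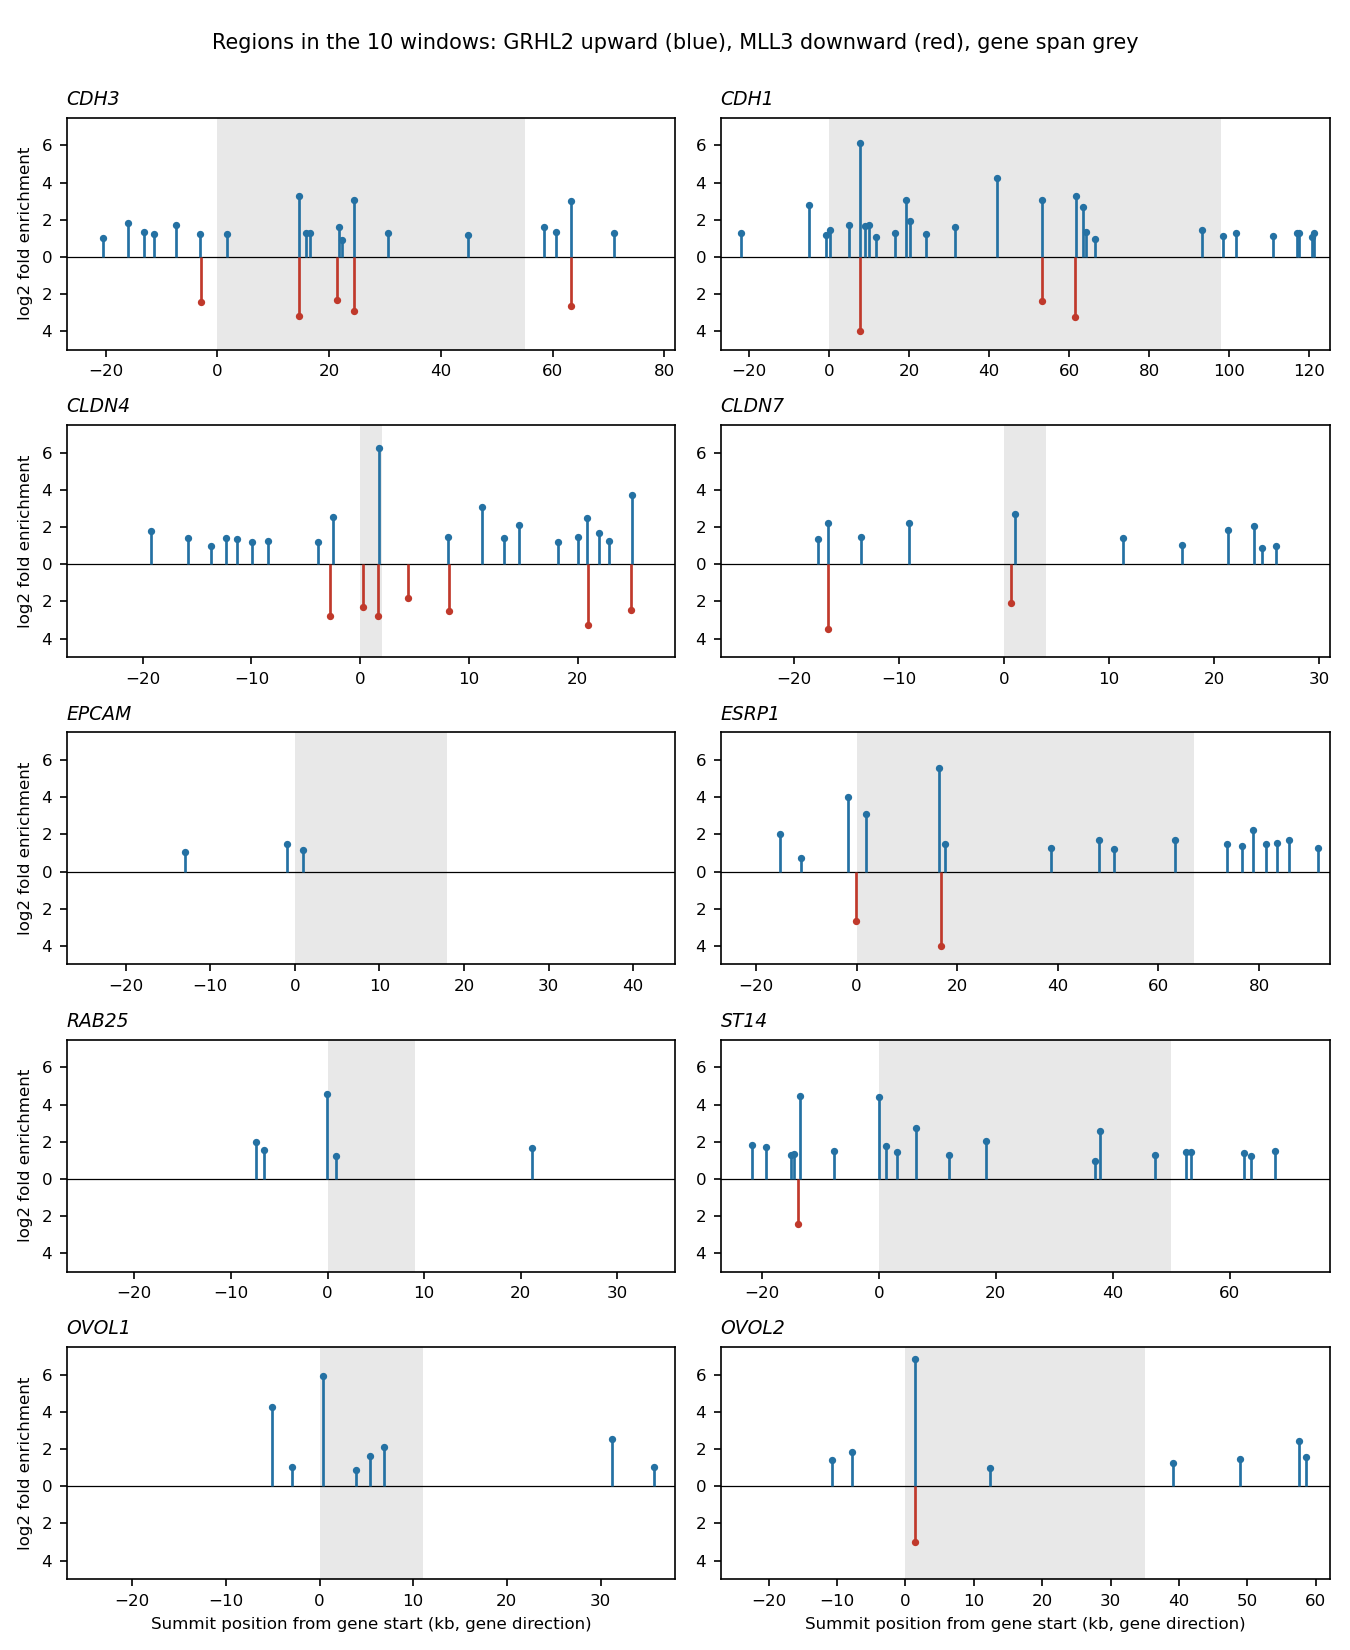
Positions of the GRHL2 regions (blue, upward) and the 21 MLL3 regions (red, downward) in the 10 windows. The x axis is the distance of the summit from the gene start in kb, in the direction of the gene, and bars give the log2 fold enrichment, with the gene span in grey. The highest GRHL2 bars stand at or just after the start in OVOL1, OVOL2, CLDN4 and RAB25, and inside the gene in CDH1 and ESRP1.

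**Figure D2:**
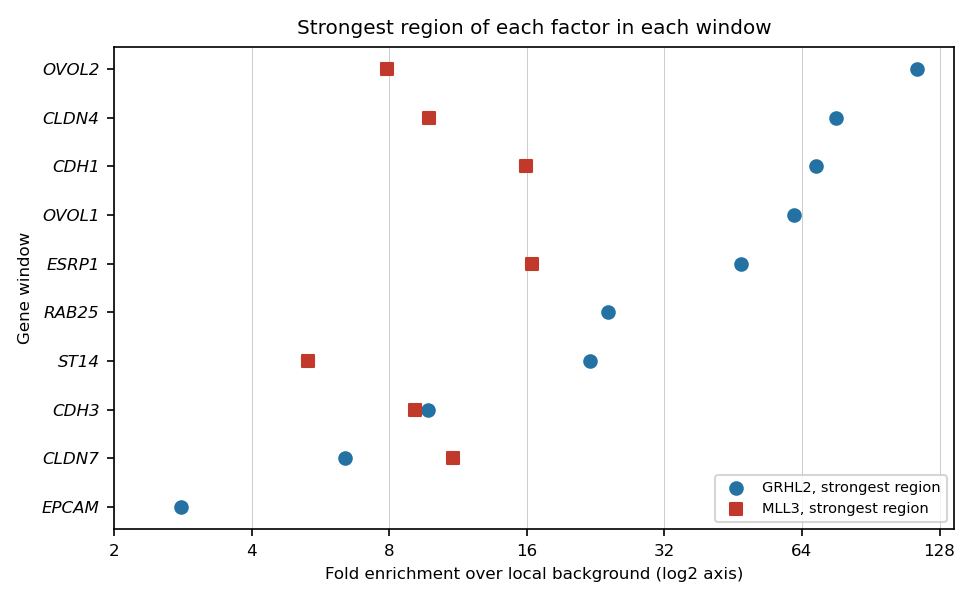
Strongest region of each factor in each window, as fold enrichment on a log2 axis, ordered by GRHL2. GRHL2 (circles) runs from 2.80 at EPCAM to 114 at OVOL2, and MLL3 (squares) is present in 7 windows, from 5.32 at ST14 to 16.4 at ESRP1.

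MLL3 was listed in 7 of the 10 windows, with none at EPCAM, RAB25 or OVOL1. The MLL3 list is the stricter one, since all 12150 of its regions reach a −log10 q of 2, as do only 30080 of GRHL2. Of the 100 kb tiles, 22.4% held an MLL3 region. The windows were from 52 to 148 kb long and hold known genes, which tiles need not, so the tiles give only a rough scale. CLDN4 had 7 MLL3 regions, CDH3 had 5, CDH1 had 3, CLDN7 and ESRP1 had 2 each, and ST14 and OVOL2 had 1 each. The 21 regions amount to 25.1 per Mb, against 3.93 per Mb over the assembled chromosomes, and to 17.8 per Mb without the CLDN4 window. Their median fold was 6.39, against 6.49 for the whole MLL3 list, and 10 of 21 were above the list's median. MLL3 regions in these windows were thus more closely spaced than over whole chromosomes, but of ordinary strength. Most of the 21 lay at CLDN4, CDH3 and CDH1. Windows of other genes were not compared, so the density cannot be set against that of genes in general.

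All 21 MLL3 regions overlapped a GRHL2 region by at least 1 bp (exact Clopper-Pearson 95% interval 83.9 to 100%), against 85.0% of the whole MLL3 list. The interval includes the share of the list, and it covers the counting of regions only. For 19 of the 21 (90.5%) the GRHL2 partner reached a −log10 q of 2, against 68.7% of the list. The other 2 were both at CDH3. Seen from GRHL2, 21 of the 138 regions (15.2%, 95% interval 9.67 to 22.3%) overlapped an MLL3 region, against 6.15% of the list. Among the 46 regions that reached a −log10 q of 2, 17 did (37.0%, 95% interval 23.2 to 52.5%), against 24.5% of the list. The intervals take regions as independent, which they are not. At CLDN4, 1 GRHL2 region held 3 MLL3 regions and 1 MLL3 region spanned 3 GRHL2 regions. The intervals therefore do not test a difference from the list.

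CDH1 had its strongest region of both factors at the same place inside the gene. The GRHL2 region (chr16:68777555-68779413) had a fold of 68.7 and a −log10 q of 489. The MLL3 region there (chr16:68778499-68779083) had a fold of 15.96, within the top 6.45% of the MLL3 list. Their summits were 4 bp apart, 7.81 kb after the gene start. Farther into the gene MLL3 had folds of 5.25 at 53.25 kb and 9.33 at 61.57 kb, on GRHL2 regions of fold 8.35 and 9.65, with 115 and 105 bp between summits. Before these, 41.94 kb after the start, a GRHL2 region of fold 19.1 (−log10 q 80.6) had no MLL3 region on it. At the start itself both factors were weak or unlisted. Within 1 kb of it lay GRHL2 regions of fold 2.27 and 2.72, with −log10 q of 0.281 and 0.897, and the nearest MLL3 summit was the one in the gene. In CDH1, then, all 3 MLL3 regions and all 4 GRHL2 regions that reached a −log10 q of 20 lay in the gene and away from its start.

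CDH3, directly before CDH1 on the chromosome, carried several regions of moderate strength. Inside the gene, 14.54 kb after the start, the GRHL2 fold was 9.74 (−log10 q 31.6) and the MLL3 fold 9.13, and the summits fell on the same base (0 bp apart). A second pair lay 24.4 kb after the start, with folds of 8.48 for GRHL2 and 7.52 for MLL3 and summits 8 bp apart. MLL3 regions of fold 5.44 (2.87 kb before the start) and 4.93 (21.46 kb after it) lay on the 2 weak GRHL2 partners, with folds of 2.32 and 3.02. The fifth MLL3 region (chr16:68741097-68742073, fold 6.29) lay beyond the end of CDH3, between both cadherin genes, on a GRHL2 region of fold 7.90 (−log10 q 23.1) with 19 bp between summits. It was 4.66 kb outside the CDH1 window and is counted for CDH3 only. EPCAM, the third adhesion gene, had 3 GRHL2 regions, with folds of 2.09, 2.26 and 2.80 and −log10 q of at most 0.757, and no MLL3 region. Regions of fold 2.80 and 2.26 lay 0.93 kb before and 0.94 kb after its start. The nearest MLL3 region (chr2:47567037-47567578, fold 7.74, −log10 q 15.3) was 3.77 kb outside the EPCAM window. At these thresholds, binding near EPCAM was not detectable at a q of 0.05, whereas CDH1 carried some of the strongest regions of the group.

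CLDN4 carried the widest GRHL2 region of the 10 windows. It ran over 6949 bp (chr7:73243696-73250644), covered the gene start and the whole gene, and had a fold of 76.1 and a −log10 q of 589. In the whole GRHL2 list 73 regions were wider, and all 73 were on chromosomes 1 or 9. It held 3 MLL3 regions, with folds of 4.96, 6.78 and 3.59 at 0.28, 1.62 and 4.38 kb after the gene start. Outside chromosomes 1 and 9, only 13 GRHL2 regions held 3 or more MLL3 regions. The summit of the middle one was 87 bp from the GRHL2 summit, whereas the others were 1424 and 2673 bp away. The other 4 MLL3 regions of the window had folds from 5.47 to 9.77. Those 2.78 kb before and 8.17 kb after the start had folds of 6.91 and 5.68. The strongest of the 4 (chr7:73265123-73266613), 20.94 kb after the start, spanned 3 GRHL2 regions with folds of 2.72, 5.50 and 3.19. The last, 24.92 kb after the start with a fold of 5.47, lay on the window's other strong GRHL2 region (fold 13.1, −log10 q 48.2). The CLDN4 window thus held many MLL3 regions, with folds from 3.59 to 9.77, along a stretch in which GRHL2 covered 39.5% of the window. By summit, 1 of them lay before the gene and 4 beyond it. RefSeq (GRCh38.p14) places METTL27 within 25 kb of CLDN4, and which gene these regions belong to was not tested.

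CLDN7, the other claudin, had weaker GRHL2 regions. A GRHL2 region of 1510 bp (chr17:7165719-7167228) covered its start, to the nearest kb, with a fold of 6.40 and a −log10 q of 9.39. On it lay an MLL3 region of fold 4.30, 0.62 kb after the start, which ranked 11264 of 12150 in the MLL3 list. The stronger MLL3 region of this window (chr17:7183641-7184015, fold 11.1, −log10 q 28.3) lay 16.82 kb before the start. The GRHL2 region under it had a fold of 4.60, with summits 7 bp apart. Of the 7 windows with MLL3, this was the only one in which no GRHL2 region reached a −log10 q of 20, and its strongest MLL3 region ranked 1986 of 12150. The CLDN7 window is crowded: RefSeq (GRCh38.p14) places 5 other protein-coding genes within 25 kb, PHF23, GABARAP, CTDNEP1, ELP5 and SLC2A4. Every gene examined except OVOL2 has a protein-coding neighbour within 25 kb. Which gene a region belongs to was not tested in any window.

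RAB25 and OVOL1 had strong GRHL2 regions at their starts and no MLL3 region. At RAB25 the GRHL2 region (chr1:156030359-156031529) covered the start with a fold of 24.1 and a −log10 q of 139. The other 4 GRHL2 regions of the window had folds from 2.37 to 3.93. That of fold 2.37 lay 0.88 kb after the start, with a −log10 q of 0.411. At OVOL1 the region over the start (chr11:65553434-65555385) had a fold of 61.5 and a −log10 q of 305, and a second, 5.05 kb before the start, had 19.1 and 67.0. The nearest MLL3 summits outside these windows were 28.2 kb beyond the edge for RAB25 and 78.1 kb for OVOL1. Absence from the MLL3 list is not absence of MLL3, since regions under the threshold of the list are not seen and the depth of sequencing is unknown.

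OVOL2 showed the strongest GRHL2 region of all 10 genes, with MLL3 on it. The GRHL2 region (chr20:18036933-18040396, 3464 bp) covered the start, to the nearest kb, with a fold of 114 and a −log10 q of 611, in the top 0.0478% of the list. The MLL3 region within it (chr20:18038402-18038829) had a fold of 7.89 and a −log10 q of 12.3, with 25 bp between summits, 1.35 kb after the start. No other MLL3 region lay in the OVOL2 window. The paralogs OVOL1 and OVOL2 therefore both had a GRHL2 region of high rank over the start, and an MLL3 region was listed at OVOL2 but not at OVOL1.

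ESRP1 had the highest MLL3 fold of the group. It was 16.4 (−log10 q 35.8) in a region 16.84 kb after the start (chr8:95669276-95670113), on a GRHL2 region of fold 47.2 and −log10 q 171. The summits were 405 bp apart, unlike those at CDH1. A second MLL3 region, of fold 6.39, lay over the start as rounded to the nearest kb. The GRHL2 region there was 3143 bp wide with a fold of 8.62, and its summit was 1927 bp from the MLL3 summit. A stronger GRHL2 region, fold 16.3 with a −log10 q of 45.4, lay 1.63 kb before the start with no MLL3 region on it. Its summit was nonetheless the nearest GRHL2 summit to that second MLL3 region, 1617 bp from the MLL3 summit. ST14 had GRHL2 regions of near-equal strength over its start (chr11:130028790-130030579, fold 21.2, −log10 q 72.2) and 13.47 kb before it (chr11:130015892-130017676, fold 22.0, −log10 q 64.1). MLL3 was listed at the distant one, with a fold of 5.32 and 247 bp between summits, and not over the start.

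Gene starts, as rounded to the nearest kb, were covered by GRHL2 in 7 genes and by MLL3 in 1. A GRHL2 region lay over the rounded start in CLDN4, CLDN7, ESRP1, RAB25, ST14, OVOL1 and OVOL2, in each with a −log10 q of 2 or more and in 5 with 20 or more. The MLL3 region was that of ESRP1. Rounding can change these calls. GRHL2 covered every position within 0.5 kb of the start in 5 genes, not in CLDN7 or OVOL2, and at least 1 such position in 9, with CDH1 and EPCAM added. MLL3 covered every such position in 0 genes and at least 1 in 2, ESRP1 and CLDN4. GRHL2 regions are wider, with a median of 532.5 bp in these windows against 418 bp for MLL3. The GRHL2 list is also far longer, with 152864 regions against 12150. More starts covered by GRHL2 than by MLL3 are therefore no result by themselves. The starts of other genes were not examined, so no share over all gene starts stands beside the counts given here. By summit, 8 GRHL2 and 3 MLL3 regions were within 1 kb of a start. Those of MLL3 were at ESRP1, CLDN4 and CLDN7, and of the 8 GRHL2 regions only those at OVOL1, RAB25 and ST14 reached a −log10 q of 2. Of the 16 strong GRHL2 regions (−log10 q of 20 or more), 5 covered a rounded start and 2 of these overlapped an MLL3 region. Of the 11 away from a start 8 did, most of them at CDH1 and CDH3. In the whole list, 76.2% overlapped MLL3 at a −log10 q of 100 or more and 38.3% between 20 and 100. The list was not split by gene start, and the shares were not tested against each other. Among the 21 MLL3 regions, 9 lay inside a gene but over 1 kb from its start, 4 before and 5 beyond the gene.

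The share of GRHL2 regions with an MLL3 region on them was given by class of −log10 q. MLL3 lay on 4 of the 6 that reached 100 (CDH1, CLDN4, ESRP1 and OVOL2, not RAB25 and OVOL1), against 76.2% of 2152 in the list. Between 20 and 100 it lay on 6 of 10 against 38.3%, between 5 and 20 on 6 of 15 against 27.5%, and between 2 and 5 on 1 of 15 against 12.4%. Below 2 it lay on 4 of 92, against 1.67%. In the list, GRHL2 regions of the highest class carried a median MLL3 fold of 10.6 (quartiles 6.99 and 15.9). Against that range the MLL3 folds at CDH1 (15.96) and ESRP1 (16.4) were at or above the upper quartile, the highest within the CLDN4 region (6.78) was below the lower quartile, and OVOL2 (7.89) was between them.

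**Figure D3:**
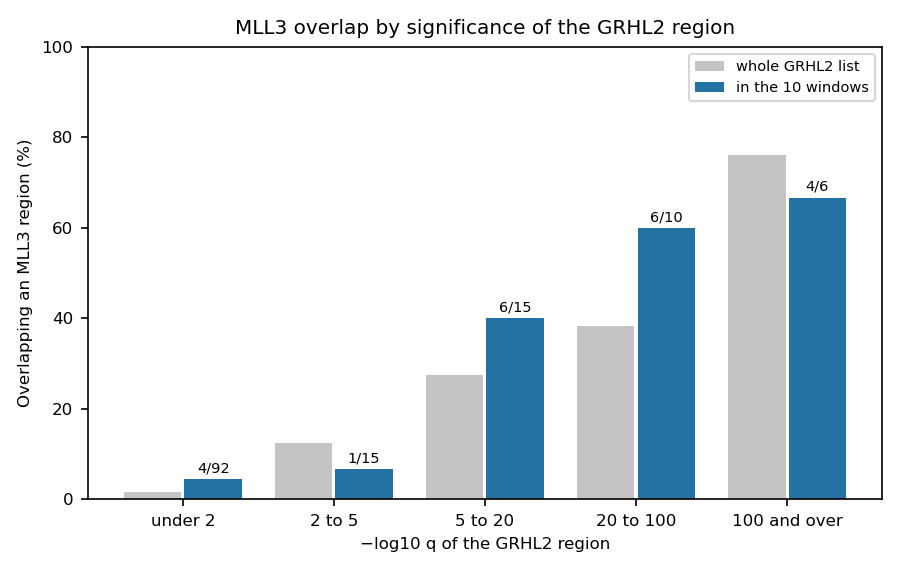
Share of GRHL2 regions that overlap an MLL3 region (y axis, %), by the −log10 q of the GRHL2 region (x axis), for the whole list (grey) and the 10 windows (blue, with counts). Both rise to the right, from 4 of 92 to 4 of 6 in the windows.

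**Figure D4:**
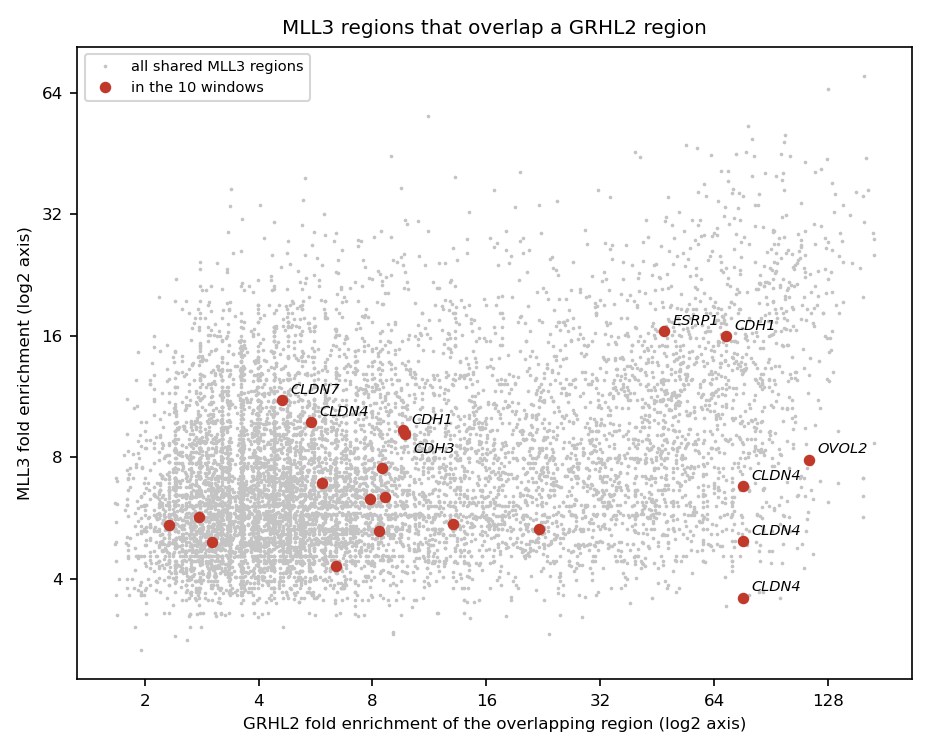
MLL3 fold enrichment against the fold of the strongest overlapping GRHL2 region, on log2 axes, for all 10327 shared MLL3 regions (grey) and the 21 in the 10 windows (red). CDH1 and ESRP1 stand at the upper right, and OVOL2 and the 3 regions under the wide CLDN4 region at the lower right.

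Across the 21 shared regions, the strengths of both factors had a low rank correlation. Spearman's rho between MLL3 fold and the fold of the strongest overlapping GRHL2 region was 0.085 and Pearson's r on log2 values 0.17. In all 10327 shared regions rho was 0.29 and r 0.37. The points share 1 pair of libraries, and 3 of the 21 share 1 GRHL2 region, so these are descriptions. Summits were within 100 bp of each other in 9 of the 21 (42.9%), against 49.1% of shared MLL3 regions in the list, and the median distance was 106 bp against 104 bp. Within 25 bp of each other were 6 pairs, 3 at CDH3 and 1 each at CDH1, CLDN7 and OVOL2.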

How the data were processed

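Regions of 1 MLL3 and 1 GRHL2 ChIP-seq library of KYSE510 cells were taken from the deposited narrowPeak lists. Per the submitters' processing notes, BWA, Picard, MACS2 and deepTools were used with hg19; their versions and settings were not given in the sources used here. From each list, the authors' fold enrichment (a ratio), −log10 p and −log10 q of each region were used as deposited, and only within their own list. The summit offset in the deposited files gave each summit. The files hold no read counts, so the depth is unknown.

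Only chromosomes 1 to 22, X and Y were analysed, which leaves out 46 MLL3 and 345 GRHL2 regions of other contigs. Coordinates are 1-based. The genes, their hg19 positions (to the nearest kb) and all lists were chosen with earlier results of these data known. Overlap was at least 1 bp. All MLL3 regions, the strongest GRHL2 region of each window, those with a −log10 q of 20 or more and those within 1 kb of a start were named. No test was made. Python 3.11.15, pandas 2.3.3 and scipy 1.17.1 were used, and window and overlap functions were tested on simulated data. A list of 24 further junction genes could be used only for promoter motifs, since no hg19 annotation was used here.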

Additional observations from a re-analysis of the deposited data

How the results depend on the processing

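Of 48 alternative settings, 35 left the count or median within 1.5 times the reported one. The 138 GRHL2 regions became 84 with 10 kb on each side, 46 from a −log10 q of 2 up, 31 from 5 up and 29 at a fold of at least 5, and their median fold was 6.38 from a −log10 q of 2 up (4.54 in the whole list). The 21 shared MLL3 regions became 9 when summits had to lie within 100 bp. Near gene starts, the 3 MLL3 regions became 5 within 2.5 kb 1 when the region had to cover the start and 0 when it had to cover every position within 0.5 kb of it, and the 8 GRHL2 regions became 15 within 2.5 kb, 5 when covering every such position and 3 from a −log10 q of 2 up. The promoters with a motif went from 0 to 2 with AACCTGT. That motif, the omission of the CLDN4 window (14 MLL3 regions left) and the settings on cover of the start were chosen after seeing the data. The number of genes with an MLL3 region was from 6 to 8 under all 6 of its settings. Unknown depth and the unequal thresholds of the lists limit every absence reported. No paired analysis was possible because neither factor had a second library.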

Other observations

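Promoters of further epithelial junction genes were searched with the same motifs. Of the 24 genes listed, 15 were in the RefSeq table (GRCh38.p14), with 22 promoters. AACCGGTT occurred in 0, AACNNGTT in 1 (4.55%) and AACCTGT in 2 (9.09%) of these, against 0.134%, 3.52% and 2.64% of all 35116 promoters. Their binding regions were not analysed here.

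Outside the OVOL2 window, the nearest MLL3 region (chr20:18125011-18125940) had a fold of 15.2 and a −log10 q of 32.3, higher than that inside it, and its summit was 60.4 kb beyond the edge. At ESRP1 the nearest outside was 242 kb away, with a fold of 4.42.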
